A study of Mus musculus with 2 samples.

Results

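The collagen genes described here are the 43 genes of the deposited gene list whose symbols read Col, digits, a and digits, out of 26893 named genes. Col4a3bp, a lipid transfer protein gene, is outside that pattern. Their mRNA was measured in primary cultures of mouse undifferentiated spermatogonia, the cells that include the spermatogonial stem cells, grown on a layer of fibroblasts. Both single-cell libraries hold some of those fibroblasts beside the germ cells. The libraries were a Chd4 siRNA library (Chd4 knockdown) and a control siRNA library (a non-targeted siRNA), with 1 library per group. Chd4 encodes a chromatin remodelling ATPase of the NuRD complex.

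In both groups the spermatogonia came from adult testes of the C57BL/6 strain by selection for THY1. They were kept in serum-free medium with GDNF and bFGF on SNL76/7 mouse embryonic fibroblasts whose division had been stopped with mitomycin. For transfection the germ cells were dislodged from that layer and given 75 pmol siRNA with 2 µL Lipofectamine on plastic for 24 h. Each library is a pool of 3 biological replicates in equal parts, mixed before the cells went into droplets, so the spread between replicates cannot be measured and no p-value is given. Intervals below are exact 95% intervals that cover counting error only.

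Collagens are triple-helical proteins of the extracellular matrix. Fibrillar types such as I, III and V give connective tissue its tensile strength, type IV forms the sheet-like network of basement membranes, and type VI forms beaded filaments near cells. Fibroblasts are known for making fibrillar collagen, while the testis basement membrane, on which spermatogonia sit in vivo, is rich in type IV collagen.

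Cells were divided into germ cells and feeder cells. Feeder cells had more UMIs (unique molecular identifiers, each standing for 1 captured mRNA molecule) of Sparc plus Fn1 than of Dazl plus Ddx4, and germ cells were all others. Sparc and Fn1 are matrix genes and Sparc binds collagen, so the division leans on genes of the same kind as the collagens, but no collagen entered it. The Chd4 siRNA library had 766 germ cells and 92 feeder cells, and the control siRNA library 735 germ cells and 81 feeder cells. In the Chd4 siRNA library 8 germ cells had equal sums and 2 feeder cells passed by a single UMI, and 8 and 3 did in the control siRNA library. Of those with equal sums, 6 in the Chd4 siRNA library and 8 in the control siRNA library had no UMI of any class gene. These fell to the germ class by default. A cell was clear where its larger sum was at least 3 UMIs and at least 5 times the other. In the Chd4 siRNA library 37 germ and 5 feeder cells were not clear, and in the control siRNA library 33 and 5.

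The Chd4 siRNA library held 15919962 UMIs of named genes and the control siRNA library 14826257. The median germ cell had 15462.5 UMIs in the Chd4 siRNA library and 15193 in the control siRNA library, and the median feeder cell 39671.5 UMIs in the Chd4 siRNA library and 38465 in the control siRNA library. All 9 named germ markers were higher in the germ class in both libraries. The 9 named fibroblast markers summed to 25.9 CPM (UMIs per 1000000 UMIs of the class) in germ cells and 1868 CPM in feeder cells of the Chd4 siRNA library, and to 23.4 and 1800 CPM in the control siRNA library, but Lum was at 0 in the feeder class of both. Of 6 Sertoli markers Sox9 had 747 UMIs in Chd4 siRNA and 703 in control siRNA feeder cells and Rhox5 had 203 in Chd4 siRNA and 86 in control siRNA feeder cells, while Amh, Wt1 and Cldn11 had at most 4 in either library. The 4 named Leydig markers summed to 0.547 CPM in Chd4 siRNA feeder cells and 0.314 CPM in control siRNA feeder cells. Of 799 barcodes listed for the Chd4 siRNA library and 817 for the control siRNA library, 1 occurred in both. Chd4 had 253 CPM in Chd4 siRNA and 535 CPM in control siRNA germ cells, a log2 ratio of -1.08 (-1.14 to -1.02), and 52.5 CPM in Chd4 siRNA and 154 CPM in control siRNA feeder cells, a log2 ratio of -1.56 (-1.80 to -1.31).

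Upstream windows of 5 collagen genes that the results below turn on are shown first. Each runs from 250 bases before to 50 after the RefSeq start of the gene on GRCm38.p6, 5′ to 3′ on the gene's own strand. For Col25a1 and Col1a2 that start, and the whole window with it, lies inside the gene span of the GENCODE annotation. Capitals mark 3 short motifs wherever they occur on either strand. These are CCAAT, the letters of the CCAAT box, then TATAAA, a form of the TATA box, and the GC box letters GGGCGG. Col4a1 and Col4a2, the paired type IV collagen genes, stand head to head, and their windows overlap by 78 bases at chr8:11312777-11312854. Col1a2 was the most abundant collagen of the feeder cells, and Col13a1 and Col25a1 were 2 of the collagens that the germ cells held at a higher level.
Col4a1, minus strand, chr8:11312777-11313076: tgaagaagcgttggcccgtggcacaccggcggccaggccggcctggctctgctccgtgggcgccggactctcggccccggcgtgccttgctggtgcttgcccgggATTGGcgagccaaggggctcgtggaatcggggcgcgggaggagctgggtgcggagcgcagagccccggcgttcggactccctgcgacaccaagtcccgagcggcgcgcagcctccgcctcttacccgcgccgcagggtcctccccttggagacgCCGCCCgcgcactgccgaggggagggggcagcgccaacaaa
Col4a2, plus strand, chr8:11312555-11312854: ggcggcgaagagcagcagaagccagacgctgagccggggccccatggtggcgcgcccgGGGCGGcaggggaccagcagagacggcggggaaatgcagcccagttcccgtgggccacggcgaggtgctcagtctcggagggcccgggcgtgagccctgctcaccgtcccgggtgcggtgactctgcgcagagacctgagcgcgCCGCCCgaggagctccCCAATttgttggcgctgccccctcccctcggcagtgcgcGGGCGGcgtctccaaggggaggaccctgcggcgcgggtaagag
Col1a2, plus strand, chr6:4505368-4505667: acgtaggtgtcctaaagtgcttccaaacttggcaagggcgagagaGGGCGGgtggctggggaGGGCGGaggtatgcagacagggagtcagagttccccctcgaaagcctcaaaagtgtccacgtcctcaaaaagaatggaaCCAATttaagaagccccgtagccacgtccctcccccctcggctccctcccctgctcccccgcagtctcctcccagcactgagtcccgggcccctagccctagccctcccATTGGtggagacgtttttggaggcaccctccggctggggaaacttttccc
Col13a1, minus strand, chr10:61979059-61979358: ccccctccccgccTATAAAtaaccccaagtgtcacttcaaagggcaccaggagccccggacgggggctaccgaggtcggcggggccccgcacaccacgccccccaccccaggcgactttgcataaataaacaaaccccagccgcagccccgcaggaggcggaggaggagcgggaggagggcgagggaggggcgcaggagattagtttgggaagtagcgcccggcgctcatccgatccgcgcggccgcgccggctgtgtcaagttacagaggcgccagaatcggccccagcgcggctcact
Col25a1, plus strand, chr3:130180595-130180894: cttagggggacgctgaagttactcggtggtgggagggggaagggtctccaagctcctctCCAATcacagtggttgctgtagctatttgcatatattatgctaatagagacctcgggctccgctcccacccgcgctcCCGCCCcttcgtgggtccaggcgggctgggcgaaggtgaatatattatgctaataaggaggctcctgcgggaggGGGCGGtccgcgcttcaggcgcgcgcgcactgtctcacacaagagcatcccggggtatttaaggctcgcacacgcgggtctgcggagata
The last part of the Col4a1 window is the reverse complement of the last part of the Col4a2 window. Each whole window holds a CCAAT and a GGGCGG, while the shared bases hold a GGGCGG and no whole CCAAT. The Col13a1 window has TATAAA, near its upstream end and far from the start of the gene, and neither of the other motifs. Of 43 collagen genes 34 had an entry in the table, with 37 windows, and CCAAT occurred in 12 of those windows, TATAAA in 4 and GGGCGG in 23. Over all 32851 windows of that table the shares were 37.4% for CCAAT, 13.6% for TATAAA and 35.7% for GGGCGG. A match of letters describes the window and shows no binding.

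Feeder cells carried a fibroblast set of collagens led by type I. Collagens took 4823 UMIs, or 1319 CPM, in Chd4 siRNA feeder cells and 4016 UMIs, or 1260 CPM, in control siRNA feeder cells. Of the 43 genes, 14 reached 100 UMIs over both libraries in feeder cells, 5 had 20 to 99, 12 had 1 to 19, and 12 were at 0. All 92 feeder cells of the Chd4 siRNA library and 77 of 81 of the control siRNA library had at least 1 collagen UMI. UMIs are counted near the 3′ end of each molecule, so CPM was not divided by gene length.

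Fibrillar collagens made up 66.2% of the collagen UMIs of Chd4 siRNA feeder cells and 66.4% of those of control siRNA feeder cells. Col1a2, the gene of the alpha-2 chain of type I collagen, led with 355 CPM in the Chd4 siRNA library and 313 CPM in the control siRNA library. Its partner Col1a1 was next, with 249 CPM in the Chd4 siRNA library and 195 CPM in the control siRNA library. Both type I genes together gave 45.8% of the feeder collagen UMIs of the Chd4 siRNA library and 40.4% of those of the control siRNA library. Col3a1, whose product joins type I in fibrils, had 123 CPM in Chd4 siRNA and 184 CPM in control siRNA feeder cells. The type V genes, whose chains help to start fibrils, were lower: Col5a2 had 65.1 CPM in Chd4 siRNA and 54.0 CPM in control siRNA feeder cells, and Col5a1 44.9 CPM in Chd4 siRNA and 62.4 CPM in control siRNA feeder cells. Col27a1, a fibril-forming collagen known from cartilage, had 23.8 CPM in the Chd4 siRNA library and 21.6 CPM in the control siRNA library. The other 5 fibrillar genes were under the 100-UMI minimum, the highest being Col11a1 with 24 UMIs in Chd4 siRNA and 7 in control siRNA feeder cells.

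Type IV and type VI collagen followed. Basement membrane genes took 13.7% of the feeder collagen UMIs in the Chd4 siRNA library and 12.03% in the control siRNA library, most of it from the chains of the widespread type IV network. Col4a2 had 87.8 CPM in Chd4 siRNA and 71.8 CPM in control siRNA feeder cells, and Col4a1 76.6 CPM in Chd4 siRNA and 64.3 CPM in control siRNA feeder cells. The head-to-head pair whose windows are shown above thus had similar levels, with Col4a2 above Col4a1 in both libraries. Col4a5, a chain of more specialised basement membranes, had 16.1 CPM in Chd4 siRNA and 15.1 CPM in control siRNA feeder cells.

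Beaded filament genes took 13.7% of feeder collagen UMIs in the Chd4 siRNA library and 14.99% in the control siRNA library. Of the type VI chains, Col6a3 had 115 CPM in Chd4 siRNA and 107 CPM in control siRNA feeder cells, and Col6a1 45.7 CPM in Chd4 siRNA and 66.8 CPM in control siRNA feeder cells. Col6a2 had 20.5 CPM in the Chd4 siRNA library and 15.1 CPM in the control siRNA library. Col8a1, a short-chain collagen of vessel walls and cornea, had 36.9 CPM in the Chd4 siRNA library and 28.2 CPM in the control siRNA library. Col16a1, which associates with fibrils, had 20.8 CPM in Chd4 siRNA and 32.3 CPM in control siRNA feeder cells. Transmembrane collagens were 0.0622% of the feeder collagen UMIs in the Chd4 siRNA library and 0.125% in the control siRNA library, and multiplexins 0.187% in the Chd4 siRNA library and 0.0996% in the control siRNA library.

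**Figure D1:**
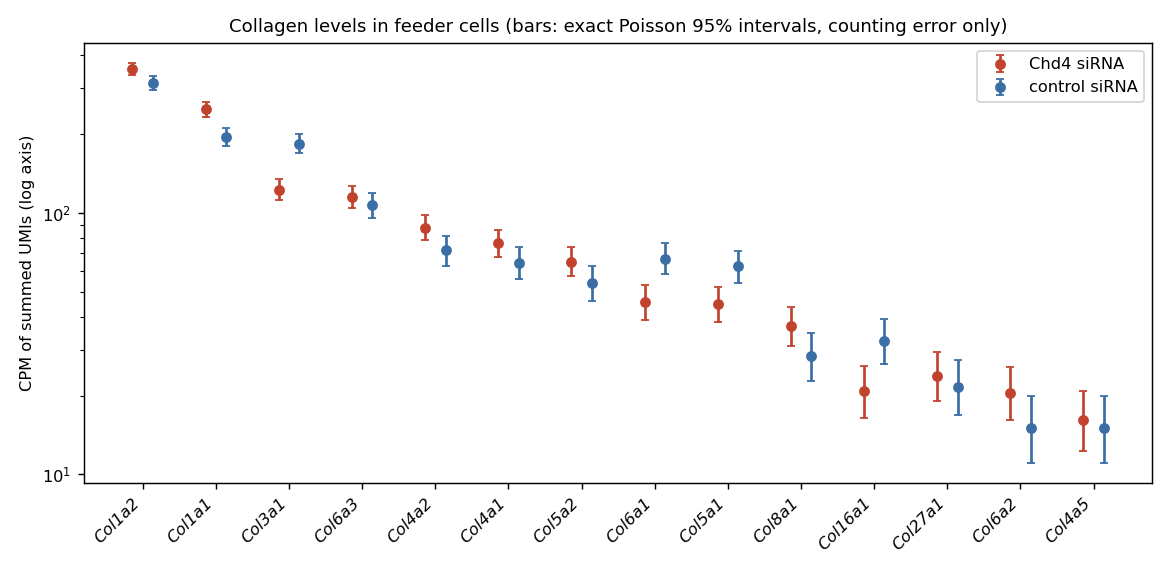
Levels of the 14 collagen genes with at least 100 feeder UMIs, in CPM on a log axis, ordered by their UMIs over both libraries; red is the Chd4 siRNA library, blue the control siRNA library, and bars are exact 95% Poisson intervals. Col1a2 and Col1a1 lead in both, and Col3a1, Col6a1, Col5a1 and Col16a1 are lower in the Chd4 siRNA library.

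Germ cells held far less collagen mRNA and a different mix. Collagens took 1444 germ UMIs, or 118 CPM, in the Chd4 siRNA library, which was 8.93% (8.41 to 9.47) of the feeder level. Control siRNA germ cells had 1272 collagen UMIs, or 109 CPM, which was 8.68% (8.14 to 9.24) of the feeder level. The median germ cell had 2 collagen UMIs and the median feeder cell 49 in the Chd4 siRNA library, and in the control siRNA library they had 1 and 42. Transmembrane collagens were 33.6% of the germ collagen UMIs in the Chd4 siRNA library and 33.9% in the control siRNA library, and multiplexins 15.2% in the Chd4 siRNA library and 16.5% in the control siRNA library. Fibrillar types were 34.2% in the Chd4 siRNA library and 29.2% in the control siRNA library, and basement membrane types 2.22% in the Chd4 siRNA library and 3.54% in the control siRNA library.

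To set these levels against feeder mRNA carried into germ droplets, 24 matrix and fibroblast genes were used as a reference. Of these 22 were named, and 17 in the Chd4 siRNA library and 18 in the control siRNA library had at least 20 feeder UMIs. Their germ level was a median of 1.15% of their feeder level in the Chd4 siRNA library (quartiles 0.916 to 1.52) and 1.20% in the control siRNA library (quartiles 1.10 to 2.92). Within 3 times that median were 13 of 17 genes in the Chd4 siRNA library and 15 of 18 in the control siRNA library. The highest was Fstl1, at 28.9% in the Chd4 siRNA library and 34.2% in the control siRNA library. A collagen with at least 20 germ UMIs was put above the reference where the lower bound of its own ratio passed 3 times the median in both libraries, that is 3.44% in the Chd4 siRNA library and 3.60% in the control siRNA library.

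Of the 43 collagens 21 had enough germ UMIs to be judged. Of those 14 were above the reference, where 97.8% of all 12908 named genes with as many germ UMIs were, so 7 collagens were among the few genes not above it. Of the 21, 4 had a germ level above the feeder level in both libraries by their intervals, against 43.8% of all those genes.

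The 7 collagens not above the reference included most of the abundant feeder types, though not Col1a1. Col1a2 had 35 germ UMIs in the Chd4 siRNA library, which was 0.804% (0.557 to 1.12) of its feeder level, and 35 in the control siRNA library, which was 0.960% (0.665 to 1.34). Col3a1 had 15 germ UMIs, at 0.998%, in the Chd4 siRNA library and 23, at 1.08%, in the control siRNA library. Col6a3, Col4a1, Col4a2 and Col5a2 had between 0.836% and 1.79% of their feeder level in either library. Col6a2, a type VI chain, had the highest ratio of the 7, at 7.55% (4.31 to 12.6) in the Chd4 siRNA library and 6.85% (3.31 to 13.1) in the control siRNA library, and missed only through the lower bound in the control siRNA library. Together these 7 genes had 122 germ UMIs in the Chd4 siRNA library and 120 in the control siRNA library. The reference ratio applied to their feeder levels gives 118.4 in the Chd4 siRNA library and 113.0 in the control siRNA library. The 7 genes were picked by a limit set from that same ratio, so their sums could not lie far above these values. The closeness is therefore no test of where the UMIs came from. Col6a2 gave 19 of the 122 UMIs in the Chd4 siRNA library and 12 of the 120 in the control siRNA library.

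The 4 collagens that germ cells held at the higher level came from other families. Col13a1 (ENSMUSG00000058806, chr10:61838236-61979108, minus strand), a transmembrane collagen of cell adhesion sites, had 313 UMIs (25.5 CPM) in germ cells and 2 in feeder cells of the Chd4 siRNA library. The control siRNA library had 303 Col13a1 UMIs (26.0 CPM) in germ cells and 5 in feeder cells. Its germ level was 46.7-fold the feeder level, with a lower bound of 12.8, in the Chd4 siRNA library and 16.6-fold, with a lower bound of 7.03, in the control siRNA library. Col25a1 (ENSMUSG00000058897, chr3:130131501-130599877, plus strand), another transmembrane collagen, known for a role in motor axons, had 168 germ UMIs and 1 feeder UMI in the Chd4 siRNA library, 50.1-fold with a lower bound of 8.87. Control siRNA cells held 127 germ UMIs and 0 feeder UMIs of Col25a1. That was 11.6-fold higher against a floor of 3 counts per library, with an exact lower bound of 9.29.

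Col18a1 (ENSMUSG00000001435, chr10:77052178-77166548, minus strand), a multiplexin of basement membranes whose end fragment is endostatin, had 220 germ UMIs (17.9 CPM) and 9 feeder UMIs in the Chd4 siRNA library. The gene had 210 germ UMIs (18.0 CPM) and 4 feeder UMIs in the control siRNA library. The germ level was 7.29-fold (3.77 to 16.2) the feeder level in the Chd4 siRNA library and 14.4-fold (5.53 to 53.3) in the control siRNA library. Col26a1 (ENSMUSG00000004415, chr5:136741759-136883209, minus strand), a collagen known from mouse testis and ovary, had 30 germ UMIs and 0 feeder UMIs in the Chd4 siRNA library. That was 2.98-fold higher against the same floor, with an exact lower bound of 2.28. The corresponding counts in the control siRNA library were 47 germ UMIs and 2 feeder UMIs, 6.44-fold (1.69 to 54.7) higher. These 4 genes made up 50.6% of all germ collagen UMIs in the Chd4 siRNA library and 54.0% in the control siRNA library. For comparison, 17 named germ genes were in feeder cells at a median of 2.61% of their germ level (range 0.634% to 14.4%) in the Chd4 siRNA library and 4.52% (1.99% to 17.7%) in the control siRNA library.

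**Figure D2:**
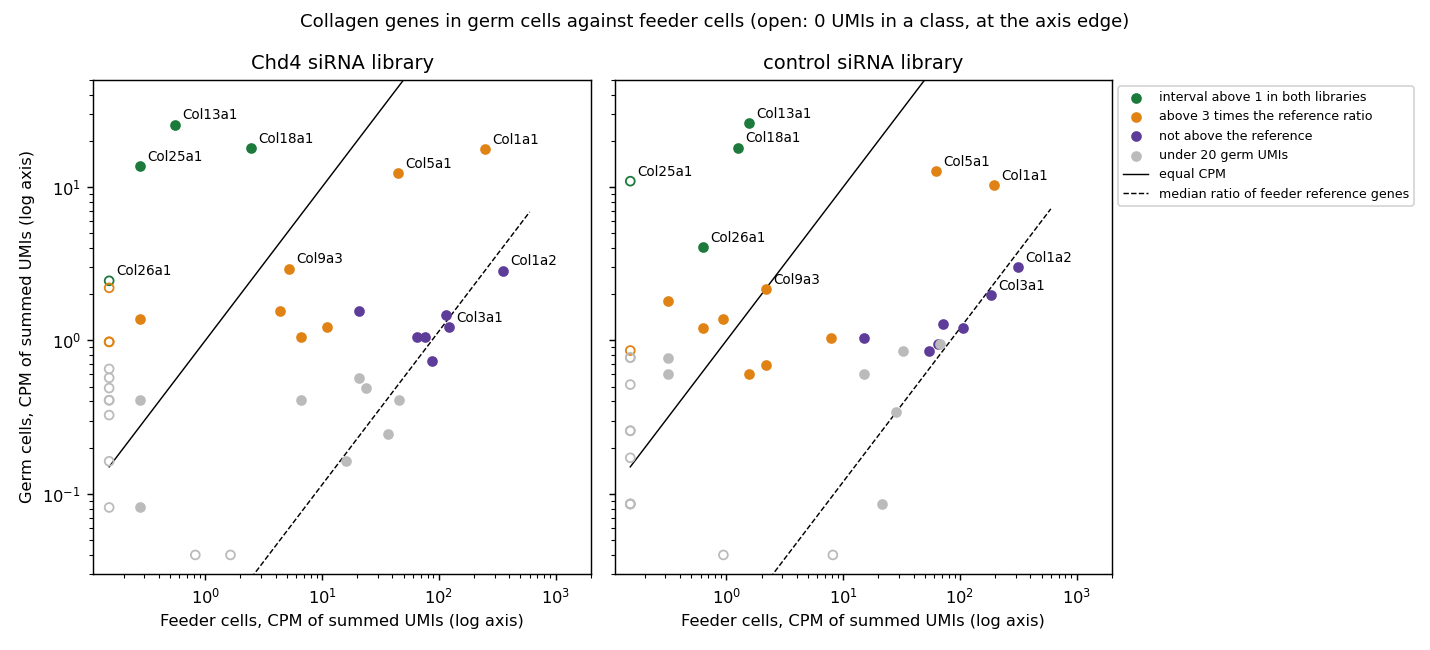
Level of each collagen gene in germ cells (vertical) against feeder cells (horizontal), in CPM on log axes, for the Chd4 siRNA library (left) and the control siRNA library (right); open points had 0 UMIs in a class and stand at the axis edge, and genes at 0 in both classes of a library are not drawn. Apart from Col6a2, purple points lie near the dashed line of the feeder reference genes, green points lie above the solid line of equal levels, and Col1a1 and Col5a1 lie between the lines.

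The other 10 collagens above the reference did not pass the feeder level in both libraries. Col5a1 (chr2:27886425-28039514, plus strand) had 151 germ UMIs (12.3 CPM) in the Chd4 siRNA library, which was 27.5% (21.9 to 34.5) of its feeder level. Its 148 germ UMIs (12.7 CPM) in the control siRNA library were 20.4% (16.4 to 25.3). At the reference ratio its feeder level gives 6.31 germ UMIs in the Chd4 siRNA library and 8.72 in the control siRNA library. Its partner chain gene Col5a2 was at 1.63% in the Chd4 siRNA library and 1.59% in the control siRNA library, so the genes for chains of type V collagen stood on different sides of the reference. Among the reference genes, Fstl1 had a higher ratio than Col5a1 in both libraries.

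Col1a1 (ENSMUSG00000001506, chr11:94936224-94953042, plus strand) stood apart from its partner in the same way. It had 217 germ UMIs (17.7 CPM) in the Chd4 siRNA library, at 7.12% (6.11 to 8.26) of its feeder level, and 120 (10.3 CPM) in the control siRNA library, at 5.28% (4.30 to 6.42), where Col1a2 was under 1% in both libraries. The reference ratio gives 35.0 germ UMIs of Col1a1 in the Chd4 siRNA library and 27.3 in the control siRNA library. Col1a1 was no longer above the reference with a limit of 5 times the median or with the ratio of summed reference counts.

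The other 8 had few UMIs. Col9a3, a chain of type IX collagen known from cartilage, had 36 germ and 19 feeder UMIs in the Chd4 siRNA library, a germ level 56.5% of the feeder level, and 25 germ and 7 feeder UMIs in the control siRNA library, or 97.8%. Its annotation overlaps Tcfl5 on the opposite strand by 234 bases, and that of Col18a1 overlaps Slc19a1 by 8825 bases. Other collagens named here overlap further annotated genes. Among these overlaps, Col25a1 shares 6152 bases with Gm43210 and Col26a1 6086 bases with Gm20485, both on the same strand. Col5a1 shares 5021 bases with Gm13372 on the opposite strand. No source used here says whether reads were counted by strand, so reads of the opposite-strand overlaps cannot be told apart. Strand cannot separate reads of the same-strand overlaps. Col5a3, Col7a1 (anchoring fibrils of skin) and Col11a1 had between 7 and 19 germ UMIs per library, at 11.2% to 38.3% of their feeder level. Col2a1, Col9a2, Col20a1 and Col22a1 had 10 to 27 germ UMIs and at most 3 feeder UMIs per library, with intervals too wide to place them above or below the feeder level in both. The remaining 22 genes had fewer than 20 germ UMIs over both libraries, and Col19a1, Col15a1 and Col10a1 were at 0 in both classes.

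The share of cells with a UMI was taken after each cell was thinned to 9000 UMIs, which left 696 germ and 86 feeder cells in the Chd4 siRNA library and 666 germ and 76 feeder cells in the control siRNA library. Col13a1 was found in 17.1% (14.4 to 20.1) of germ cells of the Chd4 siRNA library and in 0 of 86 feeder cells, which allows a share of up to 3.49% by a limit of 3 counts and 4.20% by the exact interval. In the control siRNA library it was found in 21.5% (18.4 to 24.8) of germ cells and 2.63% (0.320 to 9.18) of feeder cells. Col18a1 was found in 14.7% of germ and 2.33% (0.283 to 8.15) of feeder cells of the Chd4 siRNA library, and in 14.7% of germ and 0 of 76 feeder cells of the control siRNA library, which allows up to 3.95% by that limit and 4.74% by the exact interval. Col25a1 was found in 9.63% of germ cells of the Chd4 siRNA library and 8.86% of the control siRNA library, and in no feeder cell of either, with the same limits. Unthinned, Col13a1 UMIs came from 214 of 766 germ cells in the Chd4 siRNA library and 215 of 735 in the control siRNA library, with at most 6 UMIs in 1 cell.

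Feeder collagens had the opposite pattern. Col1a2 was found in 2.87% of germ and 80.2% of feeder cells of the Chd4 siRNA library, and in 3.15% of germ and 81.6% of feeder cells of the control siRNA library. Col3a1 was found in 1.58% of germ and 43.0% of feeder cells of the Chd4 siRNA library, and in 2.25% of germ and 48.7% of feeder cells of the control siRNA library. Col1a1 was found in 12.8% (10.4 to 15.5) of germ and 73.3% of feeder cells of the Chd4 siRNA library, and in 7.81% (5.89 to 10.1) of germ and 72.4% of feeder cells of the control siRNA library. Col5a1 was found in 10.2% of germ and 32.6% of feeder cells of the Chd4 siRNA library, and in 10.5% of germ and 40.8% of feeder cells of the control siRNA library. As a background, Bgn, a proteoglycan gene and the most abundant of the reference genes in feeder cells, was found in 10.8% of germ and 96.5% of feeder cells of the Chd4 siRNA library, and in 12.3% of germ and 96.1% of feeder cells of the control siRNA library. In the Chd4 siRNA library the germ-cell share of Col1a1 was above that of Bgn and the share of Col5a1 below it, with overlapping intervals, and in the control siRNA library both were below it. Bgn had more feeder UMIs than either.

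Between germ cells with and without Col1a1, Bgn did not differ beyond counting error. In the Chd4 siRNA library Bgn was at 12.5 CPM in the 163 germ cells with Col1a1 and at 14.99 CPM in the 603 without, a ratio of 0.84 (0.56 to 1.22). In the control siRNA library it was at 13.1 CPM in 91 cells with Col1a1 and 13.96 CPM in 644 without, a ratio of 0.94 (0.56 to 1.49). The cells were not matched for depth, and Bgn CPM was lower in deeper germ cells, as given below. Cells with Col1a1 had a median of 16986 UMIs and cells without it 15209 in the Chd4 siRNA library. In the control siRNA library the medians were 16820 and 15133. No germ cell held more than 5 Col1a1 UMIs in the Chd4 siRNA library or 7 in the control siRNA library, so no single cell set the total. For Col5a1, Bgn was at 17.2 CPM with and 13.8 CPM without it in the Chd4 siRNA library, and at 12.9 CPM with and 14.1 CPM without it in the control siRNA library. For Col1a2, Bgn was at 15.6 CPM in the 34 germ cells with it and 14.4 CPM in the others of the Chd4 siRNA library, a ratio of 1.08 (0.486 to 2.104). In the 33 control siRNA germ cells with Col1a2 it was at 3.41 CPM, from 2 UMIs, and in the others at 14.4 CPM, a ratio of 0.237 (0.0285 to 0.872) whose interval excluded equality.

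Counts were then set against the depth of the germ cells, in 3 equal groups from shallow to deep, with medians of 11256.5, 15467 and 20706 UMIs in the Chd4 siRNA library and 11034, 15193 and 21083 UMIs in the control siRNA library. The 4 germ-high collagens had 75.4, 93.3 and 118 UMIs per 100 cells in the Chd4 siRNA library, and 76.7, 85.7 and 118 in the control siRNA library. The 7 collagens not above the reference had 8.59, 18.0 and 21.2 per 100 cells in the Chd4 siRNA library, and 13.5, 13.5 and 22.0 in the control siRNA library. Col1a1 had 19.5, 24.3 and 41.2 per 100 cells in the Chd4 siRNA library, and 14.3, 10.6 and 24.1 in the control siRNA library. Col5a1 had 14.1, 18.0 and 27.1 in the Chd4 siRNA library, and 12.2, 16.3 and 31.8 in the control siRNA library. Bgn had 20.7, 22.7 and 25.9 in the Chd4 siRNA library, and 18.8, 22.0 and 24.9 in the control siRNA library. The deepest group was above the shallowest for each of these sets in both libraries, and by the smallest factor for Bgn. Scaled to the UMIs of the cells the order differed. The 4 germ-high collagens had 72.9, 60.04 and 53.1 CPM from the shallowest to the deepest group in the Chd4 siRNA library, and 75.7, 56.5 and 53.2 CPM in the control siRNA library. The 7 collagens not above the reference had 8.31, 11.6 and 9.55 CPM in the Chd4 siRNA library, and 13.3, 8.87 and 9.93 CPM in the control siRNA library. Bgn had 20.01, 14.6 and 11.7 CPM in the Chd4 siRNA library, and 18.5, 14.5 and 11.2 CPM in the control siRNA library. Col1a1 had 18.9, 15.6 and 18.6 CPM in the Chd4 siRNA library, and 14.1, 6.99 and 10.9 CPM in the control siRNA library. Col5a1 had 13.6, 11.6 and 12.2 CPM in the Chd4 siRNA library, and 12.1, 10.8 and 14.3 CPM in the control siRNA library.

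**Figure D3:**
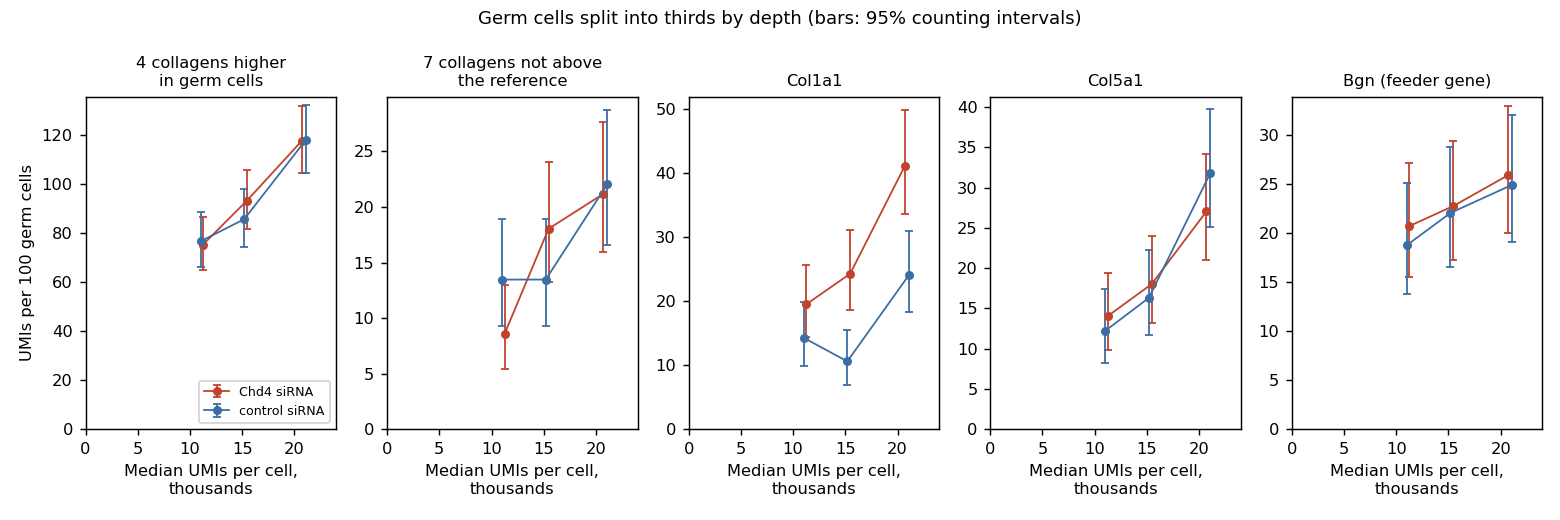
UMIs per 100 germ cells (vertical) against the median UMIs per cell of each depth group (horizontal, in units of 1000 UMIs), for the 4 collagens higher in germ cells, the 7 not above the feeder reference, Col1a1, Col5a1 and Bgn; red is the Chd4 siRNA library, blue the control siRNA library, and bars are exact 95% Poisson intervals. Each panel has its own vertical scale; Col1a1 of the Chd4 siRNA library reaches 41.2 in the deepest cells, and Bgn lies between 18.8 and 25.9 over both libraries.

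Within the germ cells none of the collagens compared differed with any of the markers used beyond counting error in both libraries. Thinned UMIs of Col13a1, Col18a1, Col25a1, Col1a1 and Col5a1 were compared between cells with and without a UMI of each of 9 markers or marker groups, among them Nanos2 and Id4 of stem-like cells, Kit, Stra8 or Neurog3 of more differentiated cells, and cell cycle genes. Of these 45 comparisons 0 had an interval that excluded equality in both libraries. Several had one that excluded it in 1 library only, in either direction. One of them, picked out after its values were seen, was Col25a1 in cells with and without Pou5f1, at 14.7 and 9.35 UMIs per 100 cells in the Chd4 siRNA library (ratio 1.57, 0.989 to 2.50) and 13.6 and 7.64 in the control siRNA library (ratio 1.78, 1.05 to 2.99). Picked out likewise, Col18a1 with Tmc3 had a ratio of 1.15 (0.766 to 1.71) in the Chd4 siRNA library. In the control siRNA library that ratio was 1.86 (1.26 to 2.72). For Col13a1 with Herpud1 the ratio was 1.03 (0.673 to 1.52) in the Chd4 siRNA library and 0.582 (0.346 to 0.929) in the control siRNA library. Col5a1 with Sohlh1 also excluded equality in the control siRNA library only, at 1.74 (1.06 to 2.81). In the Chd4 siRNA library only, Col25a1 did so with Nanos2 at 2.01 (1.15 to 3.38), Egr4 at 1.69 (1.06 to 2.70) and Sohlh1 at 1.71 (1.05 to 2.74). There Col18a1 with Egr4 was at 0.632 (0.420 to 0.937). Col5a1 was at 2.25 (1.03 to 4.39) with Kit, Stra8 or Neurog3 and 1.79 (1.11 to 2.90) with cell cycle genes.

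For the comparison of Chd4 siRNA with control siRNA, a gene with at least 100 UMIs over both libraries in a class was called where its ratio passed 1.5-fold and its interval excluded equality. Positive log2 ratios mean a higher level in the Chd4 siRNA library. In feeder cells 0 of 14 collagens were called higher, where 2.33% of 6530 tested genes were, and 2 were called lower, Col3a1 and Col16a1, where 4.29% of all genes were. The median log2 ratio of the 14 was 0.16, against 0.00 over all genes, with 10 above 0 and 4 below. Summed collagen differed by a log2 ratio of 0.07 (0.01 to 0.13), and without Col1a1 by 0.01 (-0.06 to 0.08). Of 7 fibroblast markers tested in feeder cells Thbs1 was called higher (238 UMIs in Chd4 siRNA and 134 in control siRNA cells) and Pdgfra lower (107 UMIs in Chd4 siRNA and 165 in control siRNA cells), and the Sertoli marker Rhox5 was also called higher. Their part in the collagen ratios was not tested.

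Type I and type IV collagen genes had positive ratios without being called. Col1a1 had 909 UMIs in Chd4 siRNA and 623 in control siRNA feeder cells, a log2 ratio of 0.35 (0.20 to 0.50). Col1a2 had 1298 UMIs in Chd4 siRNA and 999 in control siRNA feeder cells, a log2 ratio of 0.18 (0.06 to 0.30). Col4a2 had 321 UMIs in Chd4 siRNA and 229 in control siRNA feeder cells, at 0.29 (0.04 to 0.54). Its neighbour Col4a1 had 280 UMIs in Chd4 siRNA and 205 in control siRNA feeder cells, at 0.25 (-0.01 to 0.52), so the log2 ratios of the head-to-head genes lay close together. Col5a2, Col8a1, Col6a3, Col6a2, Col27a1 and Col4a5 had log2 ratios between 0.10 and 0.45 with intervals that included 0. The highest of these, Col6a2, rested on 75 UMIs in Chd4 siRNA and 48 in control siRNA feeder cells, and 17 of the 75 came from 1 cell.

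Col16a1 fell, with 76 UMIs in Chd4 siRNA feeder cells against 103 in control siRNA feeder cells, a log2 ratio of -0.64 (-1.08 to -0.19). It was at 0 in 46 of 92 Chd4 siRNA feeder cells and 35 of 81 control siRNA feeder cells, and no cell held more than 4 UMIs in the Chd4 siRNA library or 6 in the control siRNA library. Col6a1 had 167 UMIs in Chd4 siRNA and 213 in control siRNA feeder cells, a log2 ratio of -0.55 (-0.85 to -0.25) that did not pass 1.5-fold. Col5a1 had 164 UMIs in Chd4 siRNA and 199 in control siRNA feeder cells, at -0.48 (-0.78 to -0.17), also within 1.5-fold. Other genes of these collagen types had log2 ratios above 0, with Col6a3 at 0.10 (-0.11 to 0.31) and Col5a2 at 0.27 (-0.02 to 0.56), and the difference between genes was not tested.

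Col3a1 had 448 UMIs in Chd4 siRNA feeder cells against 586 in control siRNA feeder cells, a log2 ratio of -0.59 (-0.77 to -0.41) that only just passed the limit and did not pass it with TMM or DESeq2 scaling, the mean of per-cell CPM, clear cells only or at least 5000 UMIs per cell. One control siRNA cell held 149 of the 586 UMIs, or 25.4%. It had 36509 UMIs in all, 62 of Sparc plus Fn1 and 1 of Dazl plus Ddx4, and was not marked as a doublet. Without that cell the log2 ratio of Col3a1 was -0.18 (-0.37 to 0.01) and the call was lost, while Col16a1 was at -0.65 and Col1a1 at 0.41. The median feeder cell had 52.7 CPM of Col3a1 in the Chd4 siRNA library and 55.8 CPM in the control siRNA library, and 27 of 92 Chd4 siRNA and 19 of 81 control siRNA feeder cells had none.

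**Figure D4:**
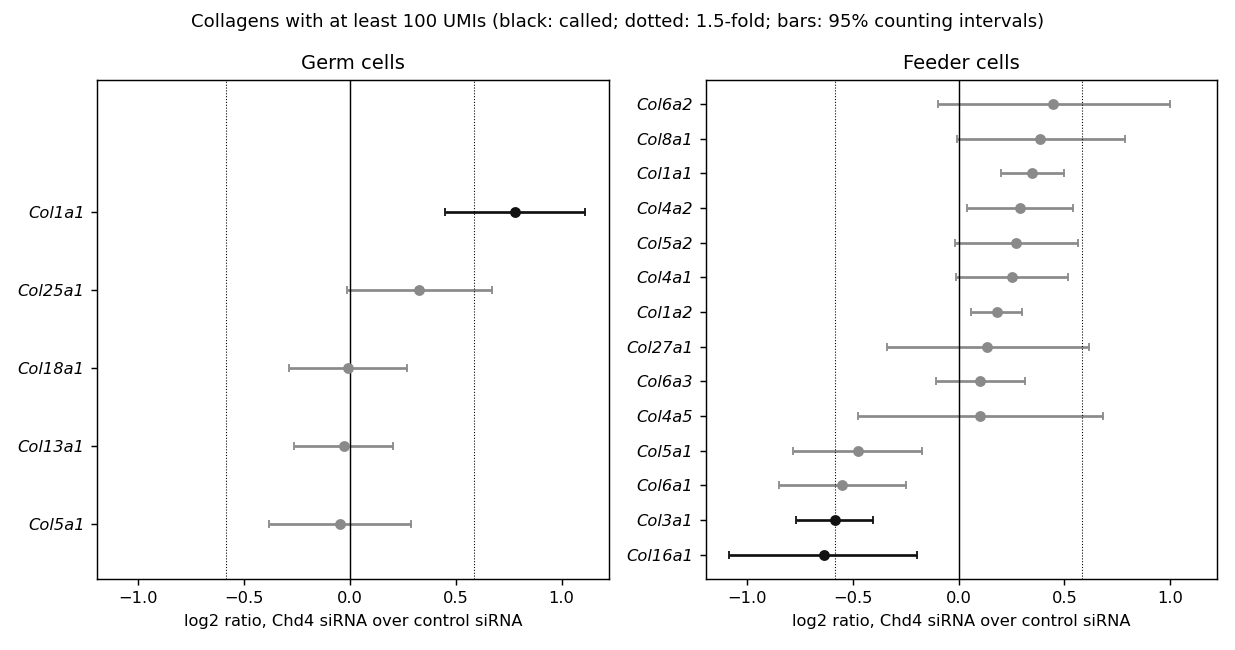
Log2 ratio of Chd4 siRNA over control siRNA for each collagen gene with at least 100 UMIs in germ cells (left, 5 genes) and in feeder cells (right, 14 genes), with exact 95% intervals; dotted lines are 1.5-fold and black points were called. Col1a1 in germ cells, at 0.78, and Col3a1 and Col16a1 in feeder cells, at -0.59 and -0.64, are the called genes.

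Collagen mRNA was spread unevenly over feeder cells, more so for Col3a1 than for type I. The median feeder cell had 336 CPM of Col1a2 in the Chd4 siRNA library and 278 CPM in the control siRNA library, and 5 of 92 Chd4 siRNA and 8 of 81 control siRNA feeder cells had none. For Col1a1 the median was 211 CPM in the Chd4 siRNA library and 170 CPM in the control siRNA library, with 6 cells at 0 in each. The highest cell held 3.54% of the Col1a2 and 12.5% of the Col3a1 UMIs in the Chd4 siRNA library, and 3.90% and 25.4% in the control siRNA library. Over feeder cells thinned to the same depth, 86 in the Chd4 siRNA library and 76 in the control siRNA library, Spearman's rho between Col1a2 and Col1a1 was 0.52 in the Chd4 siRNA library and 0.33 in the control siRNA library. Between Col1a1 and Col3a1 it was 0.54 in the Chd4 siRNA library and 0.33 in the control siRNA library, and between Col4a2 and Col4a1 it was 0.25 in the Chd4 siRNA library and 0.23 in the control siRNA library. These values describe cells of 1 library each, and all 36 pairs of 9 genes were computed.

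**Figure D5:**
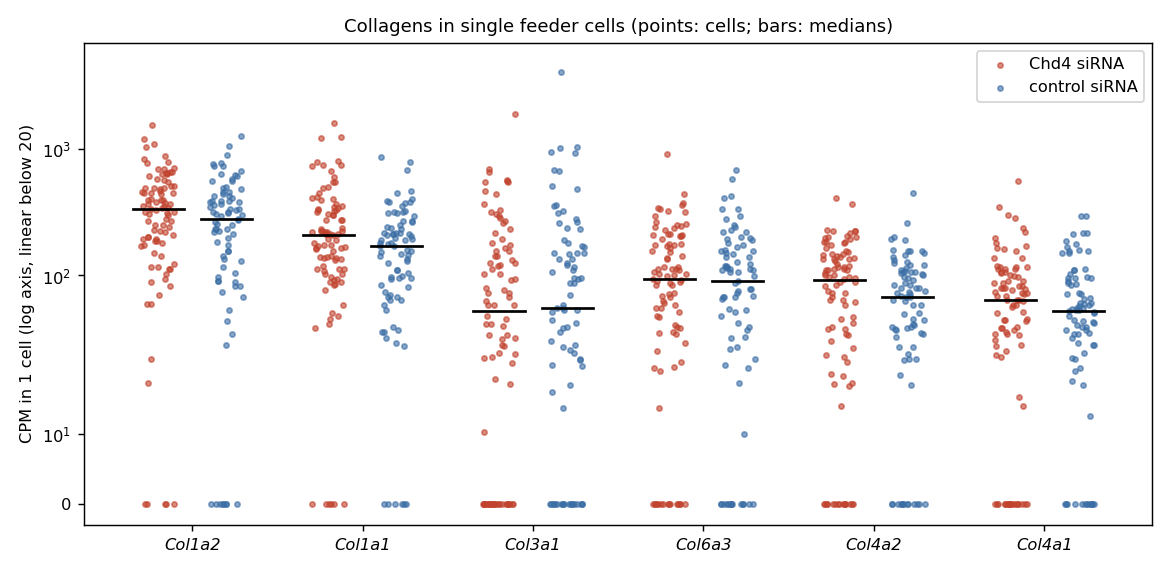
CPM of 6 collagens in single feeder cells (points; vertical axis logarithmic above 20 and linear below), with red for Chd4 siRNA and blue for control siRNA; black bars are medians over cells. Col1a2 and Col1a1 are found in most cells, Col3a1 is at 0 in 27 of 92 Chd4 siRNA and 19 of 81 control siRNA cells, and 1 control siRNA cell stands above all others in Col3a1.

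In germ cells 1 of 5 collagens with at least 100 UMIs was called higher in the Chd4 siRNA library, where 1.02% of 9839 tested genes were, and 0 were called lower, where 1.37% were. The called gene was Col1a1, with 217 UMIs in Chd4 siRNA and 120 in control siRNA germ cells, a log2 ratio of 0.78 (0.45 to 1.11). Its partner Col1a2 had 35 UMIs in Chd4 siRNA and 35 in control siRNA germ cells. In feeder cells Col1a1 also had a ratio above 1, and feeder cells were 10.7% (8.73 to 13.0) of cells in the Chd4 siRNA library and 9.93% (7.96 to 12.2) in the control siRNA library. The feeder reference genes summed to 95.5 CPM in Chd4 siRNA and 90.6 CPM in control siRNA germ cells, and Bgn had 177 UMIs in Chd4 siRNA and 161 in control siRNA germ cells. The part of feeder mRNA in the germ-cell difference of Col1a1 was not tested.

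The collagens that germ cells held at the higher level were not called. Col13a1 had a log2 ratio of -0.03 (-0.26 to 0.20), Col18a1 of -0.01 (-0.29 to 0.27) and Col25a1 of 0.33 (-0.01 to 0.67). Col5a1 was at -0.05 (-0.38 to 0.29). These 4 intervals reach at most 0.67 on the log2 scale, and differences within them were not detectable at this depth. Col26a1, under the minimum with 30 UMIs in Chd4 siRNA and 47 in control siRNA germ cells, was at -0.72 (-1.43 to -0.03). Col5a3, with 19 UMIs in Chd4 siRNA and 7 in control siRNA germ cells, was at 1.37 (0.05 to 2.86). The sum over all collagens differed by a log2 ratio of 0.11 (-0.00 to 0.22), and without Col1a1 by 0.02 (-0.10 to 0.13).

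The genes that fold, process, bind and break down collagen were counted beside all genes tested in feeder cells, of which 2.33% were called higher and 4.29% lower. Of 15 folding and modification genes 0 were called. Serpinh1, the collagen chaperone HSP47, had 1214 UMIs in Chd4 siRNA and 893 in control siRNA feeder cells, a log2 ratio of 0.25 (0.12 to 0.37). Crtap, a subunit of the prolyl 3-hydroxylase complex, had 255 UMIs in Chd4 siRNA and 319 in control siRNA feeder cells, at -0.52 (-0.76 to -0.28). Sparc, which the division into classes used, was at 0.22 (0.09 to 0.34), and Colgalt1, which adds galactose to collagen, at 0.26 (-0.05 to 0.57). Of 5 processing and crosslinking genes 0 were called. Lox, the lysyl oxidase that crosslinks fibrils, had 258 UMIs in Chd4 siRNA and 154 in control siRNA feeder cells, at 0.55 (0.25 to 0.84). Its relative Loxl1 was at -0.31 (-0.52 to -0.10), and Bmp1, which cleaves the procollagen end, and Loxl3 were at -0.12 and -0.25.

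Of 4 collagen receptor genes tested in feeder cells 1 fell, where 4.29% of all genes were called lower. This was Itgb1, the integrin beta chain shared by the collagen-binding integrins, with 541 UMIs in Chd4 siRNA and 931 in control siRNA feeder cells, a log2 ratio of -0.98 (-1.14 to -0.83). In germ cells it had 698 UMIs in the Chd4 siRNA library and 698 in the control siRNA library, at -0.08 (-0.23 to 0.08). Mrc2, Ddr1 and Ddr2 were at -0.38, 0.15 and -0.02 in feeder cells. Of 7 breakdown genes 1 rose, where 2.33% of all genes were called higher. This was Mmp3, a matrix metalloproteinase, with 520 UMIs in Chd4 siRNA and 259 in control siRNA feeder cells and a log2 ratio of 0.81 (0.59 to 1.03). Timp3, an inhibitor of such enzymes, was at -0.52 (-0.66 to -0.39), Ctsb, a lysosomal protease, at 0.47 (0.35 to 0.59), and the inhibitor Timp1 at 0.31 (0.26 to 0.37).

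In germ cells 1 of 15 folding genes, 1 of 2 processing genes, 0 of 2 receptors and 0 of 5 breakdown genes were called, both calls in the higher direction, where 1.02% of all genes were called higher and 1.37% lower. Fkbp10, a folding enzyme for procollagen, had 157 UMIs in Chd4 siRNA and 95 in control siRNA germ cells, a log2 ratio of 0.65 (0.27 to 1.03). Pcolce, which speeds up procollagen trimming, had 97 UMIs in Chd4 siRNA and 50 in control siRNA germ cells, at 0.88 (0.37 to 1.40). Pcolce was not above the feeder reference, with a germ level 5.65% of its feeder level in the Chd4 siRNA library and 3.31% in the control siRNA library. Fkbp10 was above it, at 32.7% in the Chd4 siRNA library and 27.1% in the control siRNA library. The general folding enzyme Ppib was in germ cells at 132% of its feeder level in the Chd4 siRNA library and 126% in the control siRNA library, and P4hb, a subunit of prolyl 4-hydroxylase, at 114% in the Chd4 siRNA library and 109% in the control siRNA library.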

How the data were processed

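Both libraries of droplet single-cell RNA (10x v2 chemistry, per the labels) were read from the deposited matrices, whose values are whole-number UMI counts per gene and cell that the authors made; the submitters' processing notes list Cell Ranger 2.1.0, Seurat and mm10 without saying what each was for. Of 27998 rows 26893 have a gene name here; the 1105 others, with 12.6% of UMIs in the Chd4 siRNA library and 12.1% in the control siRNA library, were left out, as was the cut last cell of each matrix, and Col17a1 is not analysed here. Cells under 1000 UMIs were removed (2 in the Chd4 siRNA library, 0 in the control siRNA library). Doublets were called with Scrublet (scanpy 1.11.5, expected rate 1%) and kept in; 9 were marked in the Chd4 siRNA library and 18 in the control siRNA library, all in the germ class. Counts were summed per class and library, scaled to the total of named genes, and compared by exact conditional binomial intervals (scipy 1.17.1). The intervals were tried on simulated independent Poisson counts, the model they assume, so the trial does not cover UMIs that cluster in single cells. Shares have exact Clopper-Pearson intervals. With 1 library per group no test over samples was possible. edgeR 4.0.16 and DESeq2 1.42.0 served only to give other scaling factors (R 4.3.3). Positions are from GENCODE vM21 on GRCm38, the assembly also called mm10, and windows from RefSeq.

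Named collagens are those with at least 100 feeder UMIs, called in a class, or above the feeder reference in germ cells; of each pathway list up to 4 genes are named, ranked by how far the interval stays from equality, and other genes were named after their values were seen. The collagens, the lists and the rules were chosen with earlier results of these data known. Lox, Loxl1 and Timp3 are in a pathway list and among the feeder reference genes.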

Additional observations from a re-analysis of the deposited data

How the results depend on the processing

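The 2 calls in feeder cells became 1 with TMM scaling, with DESeq2 size factors, with clear cells only (1 sum of class genes at least 5 times the other), with at least 5000 UMIs per cell, with at least 200 UMIs per gene and without the control siRNA cell richest in Col3a1, an alternative chosen after seeing the data; they became 3 with at least 20 UMIs per gene, which added Col11a1 as higher (24 UMIs in Chd4 siRNA and 7 in control siRNA feeder cells, log2 ratio 1.58, 0.32 to 3.04), 5 with the fold limit lowered and 0 past 2-fold. The log2 ratio of summed feeder collagen, 0.07, was 0.15 with the mean of per-cell CPM and 0.16 without that cell. With the mean of per-cell CPM the feeder calls stayed at 2, but Col3a1 was lost and Col6a1 was gained at -0.69. Under the same setting Col27a1 was at 0.59 and Col4a5 at 0.58, both still uncalled. The 1 call in germ cells became 3 with at least 20 UMIs per gene, which added Col26a1 as lower and Col5a3 as higher, and 0 past 2-fold. The share of all genes called was not taken at these other limits, so these counts have no background. The share of cells with Col1a1 depended on depth: in the Chd4 siRNA library it was 12.8% of germ and 73.3% of feeder cells at 9000 UMIs, 8.12% of germ and 59.6% of feeder cells at 5000 UMIs, and 21.3% of germ and 93.5% of feeder cells unthinned. In the control siRNA library it was 7.81% of germ and 72.4% of feeder cells at 9000 UMIs, 4.47% of germ and 60.0% of feeder cells at 5000 UMIs, and 12.4% of germ and 92.6% of feeder cells unthinned. The count of collagens above the feeder reference, 14, was 11 to 15 under the alternatives, the lowest with summed reference counts, which left out Col1a1, Col11a1 and Col7a1, and 10 to 19 rather than 14 reached the feeder minimum. Of 238 values of single genes under the alternatives 225 kept their side of the call limits, 4 gained a call and 9 lost it. Among the 225, with the mean of per-cell CPM, 2 uncalled germ-cell log2 ratios changed sign, Col5a1 at 0.07 against -0.05 and Col18a1 at 0.07 against -0.01. No called value changed sign. No scaling moved the median of all genes by more than 0.05 (log2). No paired analysis was possible because each group is 1 library that pools its replicates.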

Other observations

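The germ class held 5 cells in each library with at least 10 UMIs of S100a4, a gene looked at after its values were seen. In the Chd4 siRNA library these cells had a median of 7837 UMIs, and together they held 1 UMI of Dazl plus Ddx4 and 4 of the 1444 germ collagen UMIs. In the control siRNA library they had a median of 5541 UMIs, and together 2 UMIs of Dazl plus Ddx4 and 1 of the 1272 germ collagen UMIs.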
